A study of Mus musculus with 6 samples.

Results

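The Hedgehog pathway was followed through 8 of its genes in cultured primary mouse Sertoli cells: the ligand Dhh, the receptor Ptch1, the signal transducer Smo, the transcription factors Gli1, Gli2 and Gli3, the ligand-binding antagonist Hhip and the co-receptor Gas1. They were chosen by symbol, each had 1 Ensembl gene among the 29275 in the files, and all 8 had a value in every library. Of these 8, 6 passed the filter on low values described below, and Gli1 and Hhip did not. The study set 3 wild-type libraries (WT, untreated) beside 3 libraries labelled Arhgef15 cKO, from mice in which this gene for a guanine nucleotide exchange factor is conditionally deleted. All 6 were Sertoli cells kept in medium with serum and EGF, numbered as biological replicates 1 to 3 in each genotype. The sources used here do not give the Cre line, the deleted exons, the age and strain of the mice or any pooling of animals. They do not say that cultures came from separate animals either, so a p-value here reflects the spread among the 6 libraries, which may be technical.

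Hedgehog proteins are secreted, lipid-modified ligands. In the absence of ligand, Ptch1 holds Smo inactive and GLI proteins are processed to repressors. Ligand binding to Ptch1 releases Smo at the primary cilium, and GLI proteins then switch on targets that include Ptch1, Gli1 and Hhip themselves. In the testis, Dhh is made by Sertoli cells, and its known targets are the interstitial precursors of Leydig cells and the peritubular myoid cells, which carry Ptch1.

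Expression values for each gene were read as FPKM (fragments per kilobase of exon, scaled to library size), because the labels name no unit. Fragment numbers, here and below, were worked out from these values and exonic lengths. They put the libraries at 16790000 to 20320000 fragments. Arhgef15 itself was at 0.0237 to 0.349 FPKM in WT and 0.322 to 0.501 FPKM in the libraries labelled cKO, so its level over the whole gene did not check the labels. WT replicate 3 stood apart: across the 12284 genes tested, its Pearson correlation was 0.860 and 0.898 with the other WT libraries and 0.921 to 0.947 with those labelled cKO. Genes are not independent replicates, so these values describe the libraries only. The Sertoli transcription factors Sox9 and Wt1 were detected in every library, at 5.10 to 35.6 and 2.75 to 24.98 FPKM, while the FSH receptor gene Fshr was listed at 0 in WT replicates 1 and 2. Stromal (Pdgfra, 32.9 to 72.8 FPKM), myoid (Acta2, 431.8 to 2853 FPKM) and macrophage markers were present in all 6, so RNA of other testis cells may be included. Which cells gave these transcripts was not tested. The macrophage gene Lyz2 was at 647.8 and 576.9 FPKM in WT replicates 1 and 2 and at 37.1 to 69.4 FPKM in the other 4 libraries. In such bulk samples, fewer cells of a type and less RNA per cell cannot be told apart.

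The 250 bases before the annotated start of Dhh and of Ptch1 are shown because Dhh was the member whose groups lay apart and Ptch1 is the textbook GLI target among the receptors. Both are from RefSeq on GRCm38.p6, read on the minus strand, which carries both genes, for Dhh at chr15:98898541-98898790 and for Ptch1 at chr13:63565736-63565985. Capitals mark matches, on either strand, to a GATA motif (GATAA) or a GC box (GGGCGG), so that a match on the other strand reads TTATC or CCGCCC. The GLI motif GACCACCCA and the SOX motif AACAAT were searched too and had no match in these letters.
Dhh: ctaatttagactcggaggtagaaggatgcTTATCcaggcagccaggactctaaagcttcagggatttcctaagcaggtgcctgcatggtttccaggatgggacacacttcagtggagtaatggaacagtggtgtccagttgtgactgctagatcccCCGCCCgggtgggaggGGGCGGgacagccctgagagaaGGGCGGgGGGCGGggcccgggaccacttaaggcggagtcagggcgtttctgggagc
Ptch1: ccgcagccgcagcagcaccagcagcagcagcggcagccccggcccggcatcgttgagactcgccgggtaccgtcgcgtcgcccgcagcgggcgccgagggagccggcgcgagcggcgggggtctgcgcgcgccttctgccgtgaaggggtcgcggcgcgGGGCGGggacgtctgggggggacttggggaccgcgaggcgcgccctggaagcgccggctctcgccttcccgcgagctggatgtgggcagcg

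The Dhh window held 4 GC boxes, between 94 and 44 bases before the start, and 1 GATA match at 221 to 217 bases before it. The Ptch1 window held 1 GC box, at 91 to 86 bases before the start. Among all 32851 promoter windows of this length, 32.7% held the GC box, 22.6% the GATA motif, 9.42% the SOX motif and 0.225% the GLI motif, each on either strand. No matches of different motifs overlap in these windows. The G and C content was 59.6% for Dhh and 78.4% for Ptch1, against a median of 52.4% over all windows. A promoter entry was found for 7 of the 8 members, all but Gli1, and the GLI motif had no match in any of the 7 windows. A match describes the letters only, and a missing match says nothing of the factor.

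Dhh was the member whose values separated the labelled genotypes, and the difference did not pass the test. It was listed at 0.412 FPKM in WT replicate 1, 0.245 in WT replicate 2 and 1.01 in WT replicate 3, and the libraries labelled cKO gave 1.45, 1.69 and 2.26 FPKM in number order. All 3 libraries labelled cKO lay above all 3 WT libraries, and WT replicate 3 was the nearest to them. The means were 0.555 ± 0.400 FPKM in WT and 1.80 ± 0.415 FPKM in the libraries labelled cKO (SD, n = 3 each), a 3.25-fold difference of the means. On the log2(FPKM + 1) scale, which understates the change of low genes, the difference was 0.87, SE 0.26 (limma, Benjamini-Hochberg adjusted p = 0.598 over 12284 genes). An exact two-sided permutation test over the 6 libraries gave p = 0.1, the smallest that 3 against 3 allows.

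These Dhh values rested on few fragments. WT replicates 1, 2 and 3 held 34, 21 and 90 of them, with exact 95% Poisson bounds of 23.5 and 47.5 for the first, 13.0 and 32.1 for the second, and 72.4 and 110.6 for the third. The libraries labelled cKO held 124, 125 and 200, and the lowest of these had bounds of 103.1 and 147.8. Such bounds describe counting error alone. The upper bound of WT replicate 3 thus passed the lower bound of cKO replicate 1, before any scaling for depth. In the reference annotation, Rhebl1, on the same strand, overlaps 12.4% of the exonic bases of Dhh, and the antisense gene Gm49442 overlaps 25.2%. Without a stated strand setting, fragments in the shared bases cannot be assigned. Rhebl1 was at 0.510, 0.321 and 0.778 FPKM in WT, in number order, and at 0.731, 0.608 and 0.590 FPKM in the libraries labelled cKO. Its libraries labelled cKO thus lay above WT replicates 1 and 2, as for Dhh, but below WT replicate 3. Gm49442 was at 0.365, 0.176 and 0.404 FPKM in WT and at 0.353, 0.122 and 0.239 FPKM in the libraries labelled cKO. The part of shared fragments in the Dhh values was not tested.

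**Figure D1:**
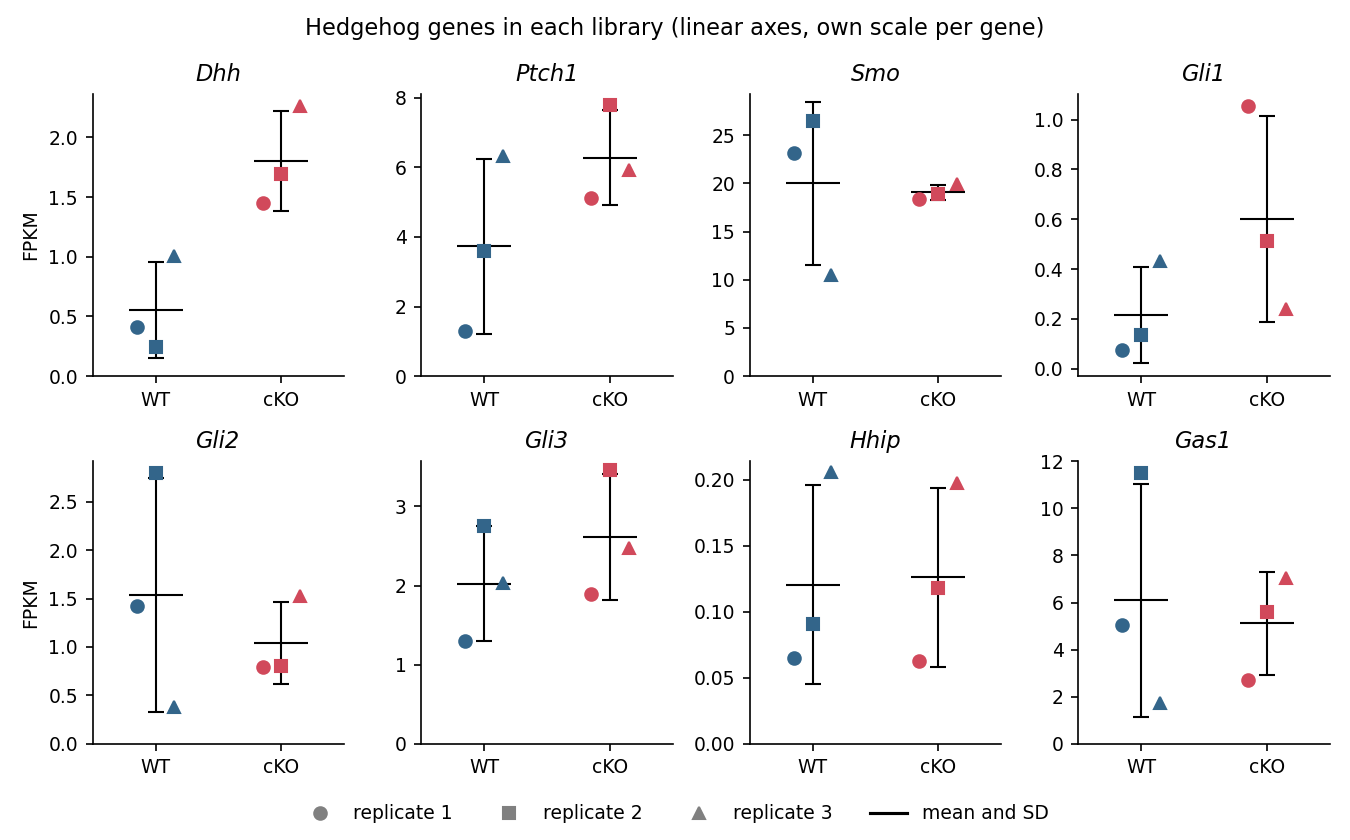
FPKM of the 8 Hedgehog genes in each library, on linear axes with a scale of their own; points are single libraries by replicate number, black bars the mean and SD of 3 libraries. For Dhh the libraries labelled cKO (1.45 to 2.26 FPKM) lie above WT (0.245 to 1.01 FPKM), and for the other 7 genes the groups overlap.

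The co-receptor and the antagonist did not separate the genotypes. Gas1, a cell-surface protein that binds Hedgehog ligands and aids their reception by Ptch1, was listed at 5.03, 11.5 and 1.75 FPKM in WT, in number order, and at 2.70, 5.61 and 7.03 FPKM in the libraries labelled cKO. WT replicates 2 and 3 were the highest and the lowest of all 6 libraries, 6.59-fold apart. The means were 6.09 ± 4.96 FPKM in WT and 5.11 ± 2.21 FPKM in the libraries labelled cKO, and the log2 difference was -0.02 (SE 0.56; limma, adjusted p = 0.993). Without WT replicate 2 it was 0.52, and without WT replicate 3 it was -0.58, so single libraries turned its direction. A lincRNA antisense to Gas1, Gm48488, overlaps 19.9% of its exonic bases and was listed at 0 in 5 libraries and at 0.00959 FPKM in the other.

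Hhip, a membrane protein that binds and sequesters the ligands and is itself a GLI target, was the lowest of the 8 in every library. It was listed at 0.0646, 0.0904 and 0.206 FPKM in WT and at 0.0625, 0.118 and 0.197 FPKM in the libraries labelled cKO. The values in the 2 groups covered nearly the same range. They rested on 11, 16 and 38 fragments in WT and on 11, 18 and 36 in the libraries labelled cKO. In a fit over all 29275 genes, since Hhip lay below the filter, the log2 difference was 0.01 (SE 0.07; limma, adjusted p = 0.994), and its 95% interval was -0.17 to 0.18.

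Ptch1, the receptor and a target of its own pathway, was listed at 1.29, 3.60 and 6.31 FPKM in WT, in number order, and at 5.13, 7.79 and 5.92 FPKM in the libraries labelled cKO. The groups overlapped through WT replicate 3, which was the second highest library. The means were 3.73 ± 2.51 and 6.28 ± 1.37 FPKM (SD, n = 3 each), and the log2 difference was 0.76 (SE 0.42; limma, adjusted p = 0.777; exact permutation p = 0.3). The 95% interval of the difference was -0.22 to 1.73. The WT values spanned 4.88-fold and the values labelled cKO 1.52-fold.

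Smo, the membrane protein that carries the signal once Ptch1 is bound, had the highest level per length of the 8 in every library. It was at 23.1, 26.4 and 10.46 FPKM in WT and at 18.4, 18.9 and 20.0 FPKM in the libraries labelled cKO. The 3 libraries labelled cKO differed by 1.08-fold from lowest to highest and lay between WT replicate 3, the lowest of all, and WT replicates 1 and 2. With means of 20.0 ± 8.43 and 19.1 ± 0.791 FPKM, the log2 difference was 0.03 (SE 0.34; limma, adjusted p = 0.989). It was -0.36 without WT replicate 3, and -0.04 with median-ratio scaling.

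The 3 GLI factors had unlike profiles. Gli1, an activator and the usual readout of pathway activity, was listed at 0.0747, 0.133 and 0.433 FPKM in WT, in number order, and at 1.05, 0.513 and 0.239 FPKM in the libraries labelled cKO. It spanned 14.1-fold over the 6 libraries, the widest range of the 8, and cKO replicate 3 lay below WT replicate 3. These values came from 7, 13 and 44 fragments in WT and from 102, 43 and 24 in the libraries labelled cKO. Exact 95% Poisson bounds were 2.81 and 14.4 for the lowest WT library and 32.0 and 59.1 for its highest. For the libraries labelled cKO they were 15.4 and 35.7 for the lowest and 83.2 and 123.8 for the highest, before any scaling for depth. The log2 difference was 0.38 (SE 0.22; limma, adjusted p = 0.903 over all 29275 genes; exact permutation p = 0.2). Without cKO replicate 1 it was 0.19.

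Gli2, the main activator in most tissues, was at 1.43, 2.80 and 0.380 FPKM in WT and at 0.789, 0.806 and 1.53 FPKM in the libraries labelled cKO. WT replicates 2 and 3 were again the extremes, 7.37-fold apart, with all libraries labelled cKO between them. The log2 difference was -0.21 (SE 0.38; limma, adjusted p = 0.932), and it was 0.14 without WT replicate 2. Gli3, which acts mainly as a repressor, was at 1.30, 2.75 and 2.03 FPKM in WT and at 1.89, 3.47 and 2.48 FPKM in the libraries labelled cKO. It varied 2.67-fold over all libraries, the groups overlapped, and the log2 difference was 0.26 (SE 0.28; limma, adjusted p = 0.893).

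**Figure D2:**
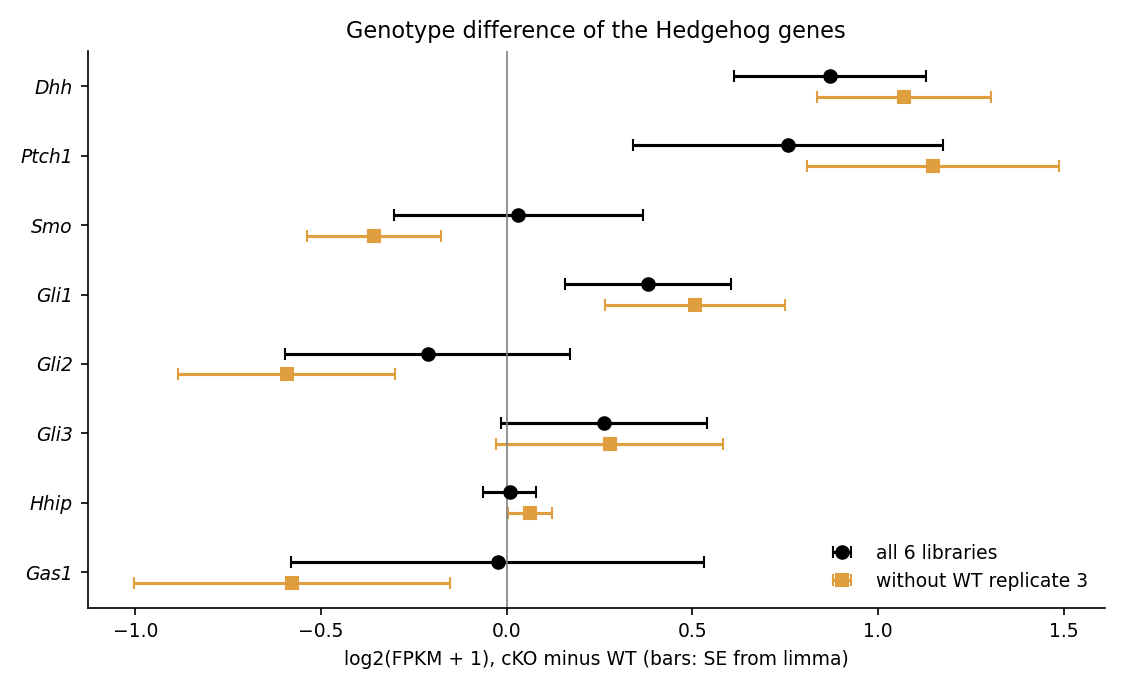
Log2(FPKM + 1) difference, libraries labelled cKO minus WT, for each of the 8 genes with its SE from limma, for all 6 libraries (black) and without WT replicate 3 (orange). Dhh and Ptch1 lie to the right in both fits, at 0.87 and 0.76 and then 1.07 and 1.15, while Smo moves from 0.03 to -0.36 and Gas1 from -0.02 to -0.58.

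Across the members, 0 of 8 passed the adjusted threshold of 0.05 in limma, where 0.0163% of all tested genes did. Of the 6 members above the filter, 1 (Dhh) had an unadjusted p under 0.05 and was higher, against 3.87% of all tested genes in that direction and 6.81% in either. The same member was the 1 of 6 whose groups did not overlap with the libraries labelled cKO higher, against 6.28% of all tested genes. The filter let Dhh pass through the 3 libraries labelled cKO and WT replicate 3, so its count is not evidence for the set. The median log2 difference of these 6 was 0.15, beside 0.08 for all genes tested. WT replicate 3 correlated less with the other WT libraries than with those labelled cKO, and leaving it out sets WT replicates 1 and 2 alone against the latter. Counts from that fit, here and for the marker lists below, depend on this choice and are not support for any list. Without WT replicate 3 the log2 difference of Dhh was 1.07 (limma, adjusted p = 0.0572) and 0 of 8 members passed, where 3.89% of all tested genes did (2.47% in the higher direction). With gene-by-gene array weights, chosen after seeing the data, Dhh was called higher at 1.13 (limma, adjusted p = 0.0187), as were 5.89% of all tested genes.

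The order of the levels, compared per length, was alike in both genotypes at its ends. Smo came first and Hhip last in all 6 libraries. By group mean, WT libraries had Smo, Gas1, Ptch1, Gli3, Gli2, Dhh, Gli1 and Hhip, and the libraries labelled cKO had Smo, Ptch1, Gas1, Gli3, Dhh, Gli2, Gli1 and Hhip. In WT the ranges of each neighbouring pair in this order overlapped. Compared within a library, Smo was above Gas1, Dhh above Gli1 and Gli1 above Hhip in all 3 WT libraries, and the other pairs changed order. In the libraries labelled cKO, all Smo values lay above all Ptch1 values and all Gli1 values above all Hhip values, and the ranges of the other neighbours overlapped. Within each of these 3 libraries, Gas1 was also above Gli3, Gli3 above Dhh and Dhh above Gli2. Dhh lay below Gli2 in WT replicates 1 and 2 and above it in WT replicate 3 and in the 3 libraries labelled cKO.

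The level of Dhh was next set beside Sertoli markers, since Dhh is a Sertoli product. The mean log2(FPKM + 1) of 15 Sertoli markers without Dhh was 2.91, 2.82 and 4.17 in WT replicates 1, 2 and 3 and 4.05, 3.62 and 4.15 in the libraries labelled cKO, so WT replicate 3 was the highest library. Of the 13 tested, 10 were on average higher under the cKO label, with a median of 0.74, and 0 passed. With WT replicates 1 and 2 alone as WT, 7 of the 13 passed (limma), all higher, where 2.47% of all tested genes were called higher, and Dhh did not pass. That count rests on leaving out WT replicate 3, the highest library for these markers. Dhh minus this marker mean was -2.42, -2.51 and -3.17 in WT and -2.76, -2.19 and -2.44 in the libraries labelled cKO. On that relative scale the groups overlapped and differed by 0.23 (exact permutation p = 0.6), and by -0.00205 without WT replicate 3. With a pseudocount of 5 the difference was -0.14 (exact permutation p = 0.8). With one of 0.1 it was 0.80 (exact permutation p = 0.1, the smallest possible), and all libraries labelled cKO lay above WT. The sign, the size and the separation of the groups thus rested on the pseudocount.

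A ratio without a pseudocount, chosen after the values were seen, gave Dhh as a percent of Sox9. It was 6.90%, 4.80% and 4.98% in WT and 6.51%, 7.03% and 6.36% in the libraries labelled cKO. The groups overlapped through WT replicate 1, with means of 5.56% ± 1.17 and 6.63% ± 0.350 (SD, n = 3 each; exact permutation p = 0.3). As a percent of Wt1, Dhh was at 15.01%, 5.87% and 6.72% in WT and 8.37%, 11.4% and 9.06% in the libraries labelled cKO (exact permutation p = 1). Both denominators are among the Sertoli markers with the larger differences, at 1.52 for Sox9 and 1.54 for Wt1 on the log2 scale, while Gata4 was at 0.13, Inha at 0.17, Krt18 at -0.06, Trf at -0.26 and Kitl at -0.60. Ratios to these were not computed, so the shares describe Sox9 and Wt1 alone. The part of Sertoli marker level in the Dhh difference was not tested.

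Markers of Schwann and endothelial cells, which are known to make Dhh, were checked as well, beside those of macrophages. Of the Schwann cell markers, Sox10 was at 0 in 4 libraries and at 0.0524 FPKM at most. The summed level of all 7 Schwann markers was 3.47 to 6.25 FPKM in WT and 1.67 to 3.39 FPKM in the libraries labelled cKO, which is the opposite order to Dhh. S100b, also found outside Schwann cells, and Mbp were the 2 of 7 that passed the filter. Endothelial markers, 8 genes, summed to 36.2, 30.9 and 62.6 FPKM in WT and to 98.2, 62.3 and 56.0 FPKM in the libraries labelled cKO, so they moved in part with Dhh. Cdh5 alone gave most of each sum, at 27.0 to 37.5 FPKM in WT and 31.6 to 55.6 FPKM in the libraries labelled cKO, so the sums say little of the rest. The 6 endothelial markers tested were all higher on average, with a median of 1.08, and 0 passed. Leaving out WT replicate 3, 3 passed, all higher, where 2.47% of all tested genes were called higher. Macrophage markers, 9 genes, went the other way: they summed to 1117, 890.9 and 212.3 FPKM in WT and to 257.8, 142.8 and 191.8 FPKM in the libraries labelled cKO. Of the 8 tested, 7 were lower on average, with a median of -1.36, and 0 passed. In the fit that left out WT replicate 3, 2 passed, both lower, where 1.42% of all tested genes were called lower. The part of these cells in the Dhh level was not tested.

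The receptors and GLI factors were set beside 9 stromal markers, as genes of interstitial cells. The stromal mean was 4.93, 5.49 and 4.14 in WT and 4.13, 4.27 and 4.82 in the libraries labelled cKO, and 7 of 9 were lower on average there, with a median of -0.32 and 0 past the threshold. When WT replicate 3 was left out, 2 passed, both lower, against 1.42% of all tested genes in that direction. Gli2 minus the stromal mean was -3.65, -3.56 and -3.68 in WT and -3.29, -3.42 and -3.48 in the libraries labelled cKO. The libraries labelled cKO lay above WT on this scale, by 0.23 (exact permutation p = 0.1, the smallest possible). Gli2 itself differed by -0.21 and the stromal mean by -0.45. The separation on the relative scale was lost with a pseudocount of 0.1 (0.27, exact permutation p = 0.7) or 5 (0.25, exact permutation p = 0.2). It was also lost after quantile normalization (0.10, exact permutation p = 0.7).

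Ptch1 minus the stromal mean was -3.73, -3.28 and -1.27 in WT and -1.52, -1.13 and -2.03 in the libraries labelled cKO, a difference of 1.20 (exact permutation p = 0.3). WT replicate 3 lay inside the range labelled cKO, and WT replicates 1 and 2 lay below it. The relative differences of the other genes were 0.83 for Gli1, 0.71 for Gli3, 0.45 for Hhip and 0.42 for Gas1 (exact permutation p from 0.2 to 0.4), with overlapping groups in each. The same stromal mean, with a difference of -0.45, was subtracted from each, and without it Hhip and Gas1 differed by 0.01 and -0.02. With Dhh, 7 such relative values were computed, and with a pseudocount of 1 Gli2 was the one whose groups did not overlap. Leydig cell markers, the other cells reached by Dhh, had a median of -0.67 over 4 tested genes, and peritubular myoid markers had -0.54 over 6. Neither list had a gene past the threshold. Without WT replicate 3, where 3.89% of all tested genes passed, the 2 Leydig genes called went opposite ways, Star at 1.24 and Hsd3b1 at -2.87, and the 2 myoid genes called, Acta2 and Tagln, were lower at -1.68 and -1.58.

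**Figure D3:**
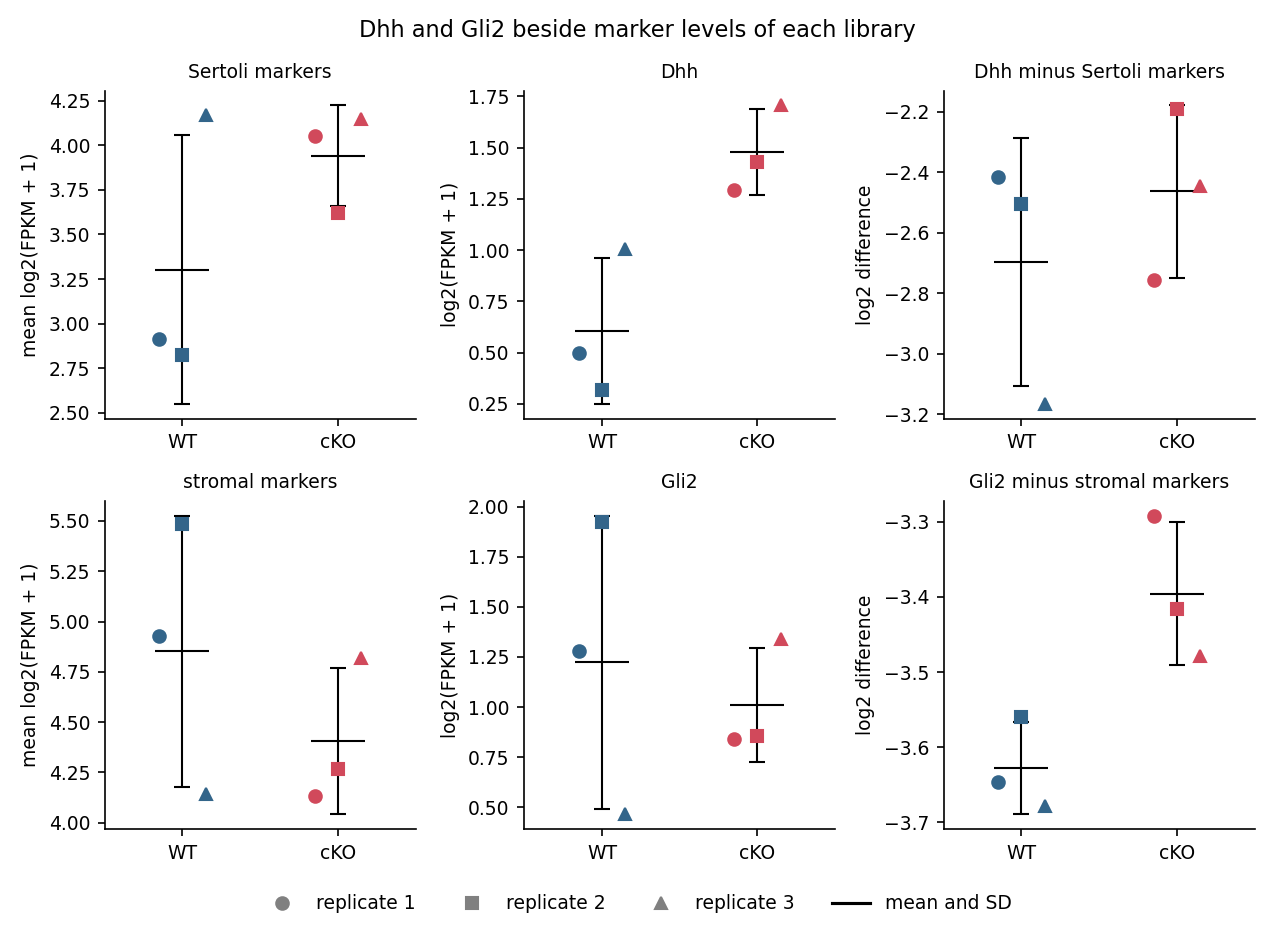
Marker mean (left), gene level (middle) and their difference (right) in each library on the log2(FPKM + 1) scale, for Dhh beside Sertoli markers (top) and Gli2 beside stromal markers (bottom); bars are the mean and SD of 3 libraries, and axes do not start at 0. With this pseudocount of 1, Dhh separates the groups alone but not relative to the markers, and with one of 0.1 it separates them relative to the markers too. WT replicate 3 is the highest library for the Sertoli mean at 4.17.

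The rest of the pathway was read from 6 lists of 46 genes, of which 45 had a row and 35 passed the filter. In limma 0 of 45 passed, and 23 of the 35 were on average higher and 12 lower under the cKO label, with a median of 0.10. Of the 35, limma gave an unadjusted p under 0.05 to 1 higher and 1 lower gene, where 3.87% and 2.94% of all tested genes were so. The groups did not overlap for 2 of the 35 in the higher and 1 in the lower direction, against 6.28% and 5.01% of all tested genes.

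Of the other ligands, Ihh was listed at 0 to 0.0673 FPKM in WT and at 0.0586 to 0.186 FPKM in the libraries labelled cKO, below Dhh in every library, and Shh was not analysed here. Ligand processing and release was represented above the filter by Hhat, the acyltransferase that adds palmitate to Hedgehog proteins, and Disp1, which exports the lipid-bearing ligand. Hhat was at 1.20 ± 0.160 FPKM in WT and 1.36 ± 0.102 FPKM in the libraries labelled cKO, and Disp1 at 9.90 ± 0.685 and 10.3 ± 1.69 FPKM. The differences of both lay within the spread of the libraries. Disp2, a relative of Disp1, was the lowest in p of this list, at 0.117 ± 0.0266 and 0.0463 ± 0.00501 FPKM (limma, adjusted p = 0.903 over all genes).

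Among the other receptors, Boc, a co-receptor that shares its role with Gas1 and Cdon, was at 24.6, 36.0 and 18.9 FPKM in WT and at 19.8, 20.0 and 17.2 FPKM in the libraries labelled cKO (limma, adjusted p = 0.810). It stood above Ptch1 and Gas1 in all 6 libraries. Lrp2, an endocytic receptor that binds Hedgehog ligands, was at 0.131, 0.203 and 1.84 FPKM in WT and at 1.28, 0.827 and 2.41 FPKM in the libraries labelled cKO (limma, adjusted p = 0.819).

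Of 13 tested signal transducers, 8 had higher and 5 lower means, with a median of 0.10 and 0 past the threshold. Sufu, the inhibitor that holds GLI proteins in the cytoplasm, was at 6.29 ± 0.835 and 6.77 ± 0.305 FPKM. Evc, a ciliary partner of Smo, had 4.63, 4.43 and 1.27 FPKM in WT and 2.12 to 2.51 FPKM in the libraries labelled cKO, with WT replicate 3 the lowest, as it was for Smo.

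Of 9 tested genes of the primary cilium, 7 had higher and 2 lower means with a median of 0.10. Tulp3, which brings receptors such as Gpr161 into the cilium, was at 13.0, 14.5 and 11.1 FPKM in WT and at 9.75, 7.82 and 9.24 FPKM in the libraries labelled cKO, without overlap (log2 difference -0.48, limma, adjusted p = 0.730). Cep164, a protein of the basal body, was at 2.51, 3.33 and 3.16 FPKM in WT and at 4.10, 3.72 and 4.13 FPKM in the libraries labelled cKO, also without overlap (limma, adjusted p = 0.814). The intraflagellar transport gene Ift140 was highest in WT replicate 3 and cKO replicate 1, at 7.26 and 9.01 FPKM against 2.05 to 3.17 FPKM in the other 4. These were also the libraries with the highest germ cell markers, with Dazl at 27.4 and 17.2 FPKM against 0.391 to 2.92 FPKM, and their part in the cilium genes was not tested.

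Of 6 tested further GLI target genes, 4 had higher and 2 lower means with a median of 0.17, and 0 passed. Mycn, a proto-oncogene transcription factor, went the other way from Ptch1 and Gli1: it was at 11.7, 10.2 and 1.90 FPKM in WT and at 2.82, 1.46 and 2.33 FPKM in the libraries labelled cKO. WT replicate 3 lay inside the range labelled cKO, and the log2 difference was -1.24 with an SE of 0.55 (limma, adjusted p = 0.736). Without WT replicate 3 it was -1.92 and passed (limma, adjusted p = 0.0160), where 1.42% of all tested genes were called lower. Foxf1, a forkhead factor of mesenchyme, was at 0.420, 0.934 and 2.34 FPKM in WT and 2.99, 0.839 and 1.59 FPKM in the libraries labelled cKO, and the cyclin gene Ccnd2 was at 41.1 ± 13.3 and 47.0 ± 9.84 FPKM.

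**Figure D4:**
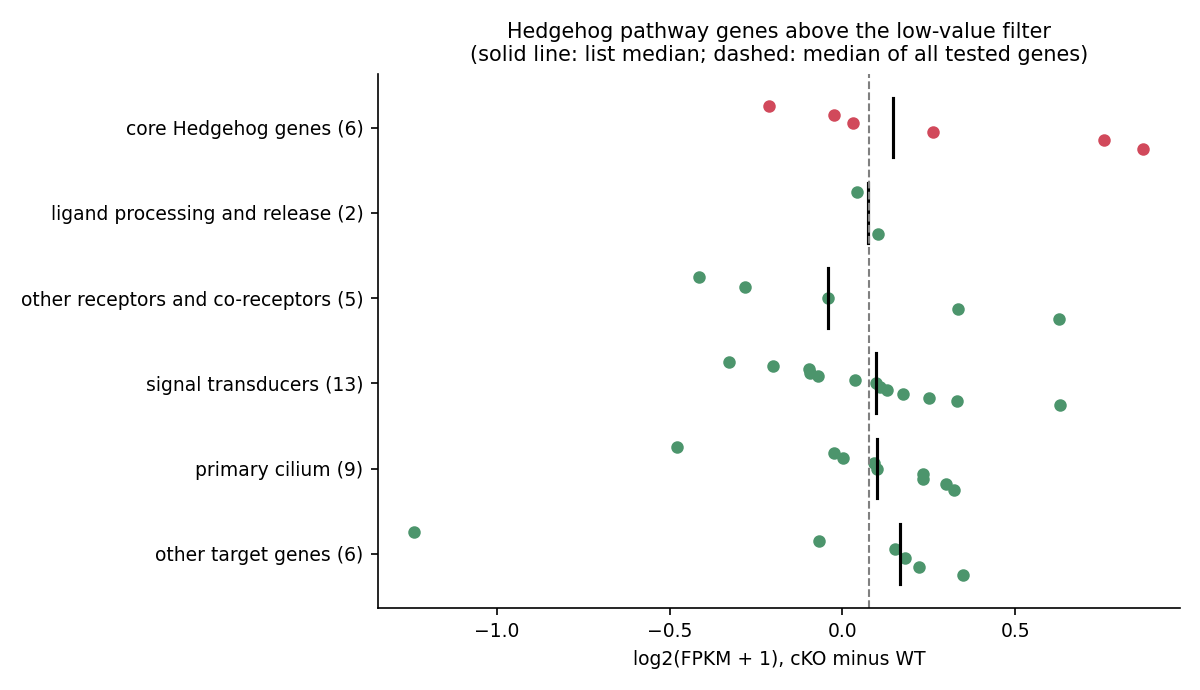
Log2(FPKM + 1) difference, libraries labelled cKO minus WT, of the genes above the filter in each Hedgehog pathway list, with the number of genes in brackets; each point is a gene, solid lines are list medians and the dashed line is the median of all tested genes, 0.08. List medians lie between -0.04 and 0.17, and the lowest point is Mycn at -1.24.

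The genes most like Dhh, Ptch1 and Gli1 over the 6 libraries were found by the root mean square distance between log2(FPKM + 1) values centred on each gene's mean, among named genes above the filter. For Dhh these were Mllt6 (distance 0.08), Sptb (0.13) and Sept9 (0.13), from 11036 candidates. Mllt6 was at 6.27, 6.19 and 8.995 FPKM in WT and at 12.0, 12.4 and 15.3 FPKM in the libraries labelled cKO. For Ptch1 they were Kmt2a (0.08), Setd5 (0.12) and Pptc7 (0.12). Kmt2a was at 1.31, 3.26 and 6.80 FPKM in WT and at 5.01, 6.997 and 5.50 FPKM in the libraries labelled cKO. For Gli1 they were Lrp5 (0.07), Per1 (0.08) and Yipf2 (0.09), and Lrp5 was highest in cKO replicate 1 at 11.7 FPKM, as Gli1 was. The pseudocount of 1 shrinks the changes of low genes, so the distances for Dhh and Gli1 depend on it. In FPKM, Dhh spanned 9.24-fold and Gli1 14.1-fold over the libraries, while Lrp5 went from 5.20 to 11.7 FPKM. No gene was among the 3 nearest of more than 1 of these members.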

How the data were processed

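The authors deposited 1 value per gene and library, and the labels name no unit. The values were read as FPKM: multiplied by exonic length (GENCODE M21), a value was a whole number of library-specific steps for 99.1% to 99.5% of single-exon genes with up to 10 fragments, within 0.02 of their number. For the 8 members all 48 deposited values, read as FPKM, gave whole fragments within 0.002. FastQC and HISAT2 2.1.0 with mm8 are named per the submitters' processing notes. The sources used here do not state how fragments were assigned to genes, with which annotation, or whether strand was used. Gene identifiers are newer than mm8, so its coordinates were not used. Of 29275 identifiers, 28932 matched a symbol.

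FPKM are not counts, so log2(FPKM + 1) was tested with limma 3.58.1 (R 4.3.3, eBayes with trend, genotype as the only term, two-sided, Benjamini-Hochberg over all genes tested, threshold 0.05) on 12284 genes, those reaching 1 FPKM in 3 or more libraries. Genes below the filter were read from the same model over all 29275 genes. The fit was tested on simulated data. Single values had exact permutation tests (Python 3.11.15). Members and lists were chosen with earlier results of these data known. All 8 members were named, and up to 3 genes per pathway list with the smallest p; the 3 genes nearest to Dhh, Ptch1 and Gli1 were named by distance. Sufu, Hhat, Disp1, Ihh, Ift140 and the overlapping genes fall outside this rule and were named after their values were seen. The fits were repeated with no filter and one at 5 FPKM, with a pseudocount of 0.1 or 5, after median-ratio scaling or quantile normalization, with array weights, with the replicate number as a block, at a threshold of 0.1 and without each library in turn. Gene-by-gene array weights and the ratios to Sox9 and Wt1 were added after seeing the data. Some genes of the lists are counted but not reported here by name.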

Additional observations from a re-analysis of the deposited data

How the results depend on the processing

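The count of all genes past the threshold was 2, and 0 without a filter, 0 with the replicate block, 0 to 478 with a library left out (478 without WT replicate 3, 4 without WT replicate 1, 0 in the other 4) and 1229 with gene-by-gene array weights, chosen after seeing the data. That last setting gave WT replicate 2 a weight of 3.81 and called 1 of 8 Hedgehog genes, Dhh, with a log2 difference of 1.13 (limma, adjusted p = 0.0187), where it called 10.0% of all tested genes. The default weights, whose iteration stopped before reaching its tolerance, gave the same library 0.242 and called 0 of 8. In all other settings run, a threshold of 0.1 included, 0 of the members fitted were called; the filter at 5 FPKM fitted 3 of them, Ptch1, Smo and Gas1. Dhh, Ptch1, Gli1 and Gli3 kept a positive difference in every setting that could be fitted. With a library left out they ranged from 0.73 to 1.07, 0.31 to 1.15, 0.19 to 0.55 and 0.08 to 0.43. Dhh was 0.29 with a pseudocount of 5 and 1.69 with 0.1. Ptch1 exceeded Dhh with a pseudocount of 5 (0.40), with default weights (1.03), and without WT replicate 2 (0.81), WT replicate 3 (1.15) or cKO replicate 3 (0.79).

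The other 4 changed sign. Smo was -0.038 with median-ratio scaling, -0.35 with gene-by-gene weights and -0.36 to 0.27 with a library left out. Gas1 was 0.02 with a pseudocount of 0.1, 0.29 with default weights and -0.58 to 0.52 with a library left out. Hhip was -0.018 with quantile normalization and -0.038 to 0.062 with a library left out. Gli2 was -0.59 to 0.14 with a library left out. Dhh relative to Sertoli markers was -0.14 with a pseudocount of 5, 0.80 with one of 0.1 and -0.00205 to 0.38 with a library left out. The other 6 relative values kept their sign, and with a library left out they ranged from 0.72 to 1.95 for Ptch1, 0.47 to 1.31 for Gli1, 0.18 to 0.27 for Gli2, 0.47 to 1.08 for Gli3, 0.12 to 0.86 for Hhip and 0.22 to 0.64 for Gas1. All 6 subtract the same stromal mean, whose own difference was -0.45, so their signs are not independent of each other. The cause was not tested.

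Deviations of same-numbered libraries from their group means correlated across genes at 0.138, 0.032 and -0.206 for numbers 1, 2 and 3. Differently numbered libraries ranged from -0.447 to 0.484. With 3 libraries a group, this check cannot decide whether same-numbered libraries were prepared together. With the replicate block, Dhh kept 0.87 (limma, adjusted p = 0.545) and 0 of 8 were called. Gli1 and Hhip rested on 7 to 102 and 11 to 38 fragments a library.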
